A study of Arabidopsis thaliana with 22 samples.

Results

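The phosphorylated serine pathway of Arabidopsis thaliana comprises 6 genes, which were chosen by their locus identifiers as the known enzymes of the pathway. They are 3 of the 3-phosphoglycerate dehydrogenase genes, PGDH1 (AT4G34200), PGDH2 (AT1G17745) and PGDH3 (AT3G19480), the phosphoserine aminotransferase genes PSAT1 (AT4G35630) and PSAT2 (AT2G17630), and the phosphoserine phosphatase gene PSP1 (AT1G18640). All 6 are among the 25680 loci of the deposited count table, and all 6 passed the filter on low counts. Their transcripts were followed in 22 leaf RNA-seq libraries of polyA RNA from mature leaves of soil-grown plants. The wild type (WT) gave 3 libraries per CO2 level, and the photorespiratory mutants hpr1 (hpr1-1), shm1 (shm1-2), glyk1 (glyk1-1) and pglp1 (pglp1-1) gave 2 each. Each mutant is a single T-DNA insertion line, and each library is stated to be a biological replicate. All plants, WT included, were raised in 1% CO2 (HC) with a 10 h day and a 14 h night, at about 120 µmol photons per square metre and second. For the LC groups the CO2 was lowered to 0.038% at the end of a night, and leaves of both conditions were taken 8 h after the light came on. The LC values therefore describe plants a few hours into photorespiratory conditions. The study compared how blocked steps of photorespiration alter the leaf's response to a drop in CO2.

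Plants make serine by separate routes. In an illuminated leaf in air most serine comes from photorespiration, where glycine decarboxylase and the mitochondrial serine hydroxymethyltransferase SHM1 join glycine molecules into serine. The phosphorylated pathway runs in plastids from 3-phosphoglycerate and is best known from roots, growing tissues and leaves in the dark: PGDH oxidises 3-phosphoglycerate, PSAT transfers an amino group from glutamate to give phosphoserine, and PSP removes the phosphate to release serine. Serine then feeds the synthesis of cysteine, tryptophan, phosphatidylserine and sphingolipids. Of the mutants, pglp1 lacks the phosphatase that opens the photorespiratory cycle, shm1 lacks the serine-forming step itself, hpr1 lacks the peroxisomal reductase of hydroxypyruvate, and glyk1 lacks the kinase that returns glycerate to 3-phosphoglycerate. High CO2 suppresses photorespiration, which is why such mutants are kept in it.

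The members differ in structure, and the sequences that bear on whether their reads can be told apart are shown here. On the TAIR10.1 assembly PGDH1 lies on the minus strand of chromosome 4 (16373731 to 16376666, 4 exons, 603 residues), PGDH2 on the plus strand of chromosome 1 (6100964 to 6105347, 3 exons, 624 residues) and PGDH3 on the plus strand of chromosome 3 (6752422 to 6754785, 4 exons, 588 residues). PSAT1 is a single-exon gene on the plus strand of chromosome 4 (16904059 to 16905722, 430 residues), and PSAT2 is a single-exon gene on the plus strand of chromosome 2 (7666548 to 7668065, 422 residues). PSP1 is on the minus strand of chromosome 1 (6416169 to 6418693, 7 exons, 279 residues). The coding sequences of PSAT1 and PSAT2 were 86.0% identical over 1259 aligned bases, and those of the 3 PGDH genes 67.7% to 74.0%. The longest run of bases that the PSAT transcripts shared was 69 bases, and no window of 100 bases, the shorter of the read lengths stated for the series, was shared in any pair of paralogues. The shared run is in capitals below, from base 538 to 626 of the PSAT1 transcript and from base 451 to 539 of the PSAT2 transcript, with 10 flanking bases on each side.
PSAT1: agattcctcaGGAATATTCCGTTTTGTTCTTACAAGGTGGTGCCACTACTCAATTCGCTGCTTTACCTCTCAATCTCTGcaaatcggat
PSAT2: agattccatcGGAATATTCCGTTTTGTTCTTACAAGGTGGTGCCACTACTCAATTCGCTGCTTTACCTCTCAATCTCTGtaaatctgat
No source used here says how reads matching more than 1 place were counted.

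The 250 bases before the transcript starts are shown for PGDH1, PGDH2 and PSAT1, which rose from HC to LC in shm1, glyk1 and pglp1, and for PSAT2, which fell there. They read 5′ to 3′ on the strand of the gene, on TAIR10.1 at chr4:16376667-16376916 for PGDH1, chr1:6100714-6100963 for PGDH2, chr4:16903809-16904058 for PSAT1 and chr2:7666298-7666547 for PSAT2. The windows of PSAT1 and PSAT2 lie largely in an upstream gene, AT4G35620 at 57 bases from PSAT1 and AT2G17620 at 25 bases from PSAT2. The window of PSP1, searched but not shown, also reaches AT1G18650, at 144 bases. The motif search in these windows therefore covers sequence of neighbouring genes. Capitals mark the only motif found in the windows shown, ACGT, the core of many bZIP factor sites.
PGDH1: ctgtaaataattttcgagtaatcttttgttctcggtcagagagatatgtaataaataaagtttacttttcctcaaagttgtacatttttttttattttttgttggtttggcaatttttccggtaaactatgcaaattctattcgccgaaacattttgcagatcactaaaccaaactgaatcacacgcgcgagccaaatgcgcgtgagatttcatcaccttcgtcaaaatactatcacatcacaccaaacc
PGDH2: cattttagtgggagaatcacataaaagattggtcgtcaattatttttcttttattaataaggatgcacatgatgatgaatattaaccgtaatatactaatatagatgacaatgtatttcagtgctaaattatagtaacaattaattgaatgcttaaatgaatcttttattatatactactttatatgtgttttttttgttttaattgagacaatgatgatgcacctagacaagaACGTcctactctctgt
PSAT1: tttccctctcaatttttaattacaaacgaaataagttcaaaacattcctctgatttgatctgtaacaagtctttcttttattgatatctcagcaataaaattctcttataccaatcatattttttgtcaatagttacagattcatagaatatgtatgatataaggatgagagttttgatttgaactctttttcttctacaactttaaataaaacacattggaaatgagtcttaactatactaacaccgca
PSAT2: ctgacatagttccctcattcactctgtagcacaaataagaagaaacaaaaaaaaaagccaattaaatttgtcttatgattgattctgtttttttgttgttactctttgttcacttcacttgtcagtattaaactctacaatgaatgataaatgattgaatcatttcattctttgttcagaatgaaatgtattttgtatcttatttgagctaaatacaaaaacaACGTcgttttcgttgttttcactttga
The letters searched, on both strands, were CACGTG (G-box), ACGT (which lies inside CACGTG), the mitochondrial dysfunction motif, AAAATATCT (evening element), ACCTACC and ACCAACC (MYB AC elements) and TTGACC and TTGACT (W-boxes). ACGT occurred in 3 of the 6 members, PGDH2, PSAT2 and PSP1, against 44.3% of 25471 promoters of the same length. TTGACC occurred only in PSP1 of the 6, against 12.3% of promoters. The other motifs, which 1.15% to 19.1% of promoters held, were in no member's window.

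The libraries held 5911382 to 194460991 counts, both extremes being LC libraries (hpr1 replicate 1 and shm1 replicate 1). Transcripts of HPR1, SHM1, GLYK and PGLP1 were below every WT library in their own mutant at both CO2 levels, at 0.458% to 13.1% of the WT mean. Within groups, Spearman's rho between libraries was 0.901 to 0.992 across loci, and it was lowest in WT in LC. WT LC replicate 3 stood apart in another way: in 4915 rows of the table, 19.1% of all, its counts belong to rows nearby, and PGDH3 is on such a row. That library was treated as missing there, so PGDH3 has 2 values in WT in LC and was fitted on 21 libraries in every comparison. The other 5 members were in place in all 22. Root markers summed to at most 0.429 counts per 1000000 normalised counts (CPM) and flower markers to at most 2.13 CPM in any library, and the leaf mesophyll markers summed to 2881 to 79142 CPM, as fits leaves.

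The leaf markers themselves moved. The summed level of 5 mesophyll markers was 36469 to 66342 CPM over the 11 HC libraries, 15158 to 67127 CPM in WT in LC, 25679 to 26324 CPM in hpr1, 22526 to 23929 CPM in glyk1, 67489 to 79142 CPM in pglp1 and 2881 to 5117 CPM in shm1 in LC. The sum of 4 epidermis markers was 193 to 253 CPM in WT in LC against 144 to 151 CPM in hpr1, 121 to 126 CPM in pglp1, 106 to 116 CPM in glyk1 and 51.8 to 58.7 CPM in shm1. The 4 phloem markers summed to 163 to 407 CPM over all groups, with the highest value in shm1 in LC. In bulk leaf tissue, fewer cells of a type and less RNA per cell cannot be told apart. The part of these shifts in the values below was not tested.

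After the shift to low CO2, PGDH1, PGDH2 and PSAT1 rose and PSAT2 fell in shm1, glyk1 and pglp1, PSAT2 also fell in hpr1, and no member was called in WT. A call is an adjusted p under 0.05 from edgeR's quasi-likelihood test, adjusted by Benjamini-Hochberg over the 20449 loci tested. Between LC and HC, 0 of 6 members were called in WT, where 0.0196% of all loci were called in either direction. At an unadjusted p under 0.05 the WT contrast held 2 members and 1834 loci, and DESeq2 called 0 members. The 2 were PGDH1 (-1.13 ± 0.41, adjusted p = 0.397) and PSAT1 (-1.20 ± 0.35, adjusted p = 0.277). The same contrast called 1 member in hpr1 (15.4% of loci), 6 in shm1 (65.8%), 5 in glyk1 (54.4%) and 4 in pglp1 (56.1%). So in the last 3 mutants most loci were called, and the members' counts are read against that background. The directions were 3 higher and 3 lower in shm1, 3 higher and 2 lower in glyk1, and 3 higher and 1 lower in pglp1, where 34.1%, 28.9% and 25.4% of loci were called higher and 31.7%, 25.5% and 30.7% lower.

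Against WT in LC, 1 member was called in hpr1 (2.90% of loci), 5 in shm1 (66.6%), 4 in glyk1 (55.7%) and 3 in pglp1 (60.2%). Called higher were 2.11% of loci in hpr1, 33.6% in shm1, 28.7% in glyk1 and 27.0% in pglp1, and called lower 0.792%, 33.0%, 27.0% and 33.2%. These 4 comparisons share the 3 WT LC libraries. When the mutant's LC against HC change was tested against that of WT, 0 members were called in hpr1 (0.0734% of loci), 6 in shm1 (54.1%), 5 in glyk1 (38.8%) and 4 in pglp1 (42.7%). For hpr1 that test held 2 members and 2482 loci at an unadjusted p under 0.05 (PSAT1 and PSAT2), and DESeq2 called 1. Only in pglp1 did the median of all loci leave 0 by more than 0.1 on the log2 scale: it was -0.18 between LC and HC and -0.23 against WT in LC, and with median-ratio size factors -0.08 in the latter. Changes in pglp1 are thus up to 0.23 larger, where higher, relative to its own median locus.

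**Figure D1:**
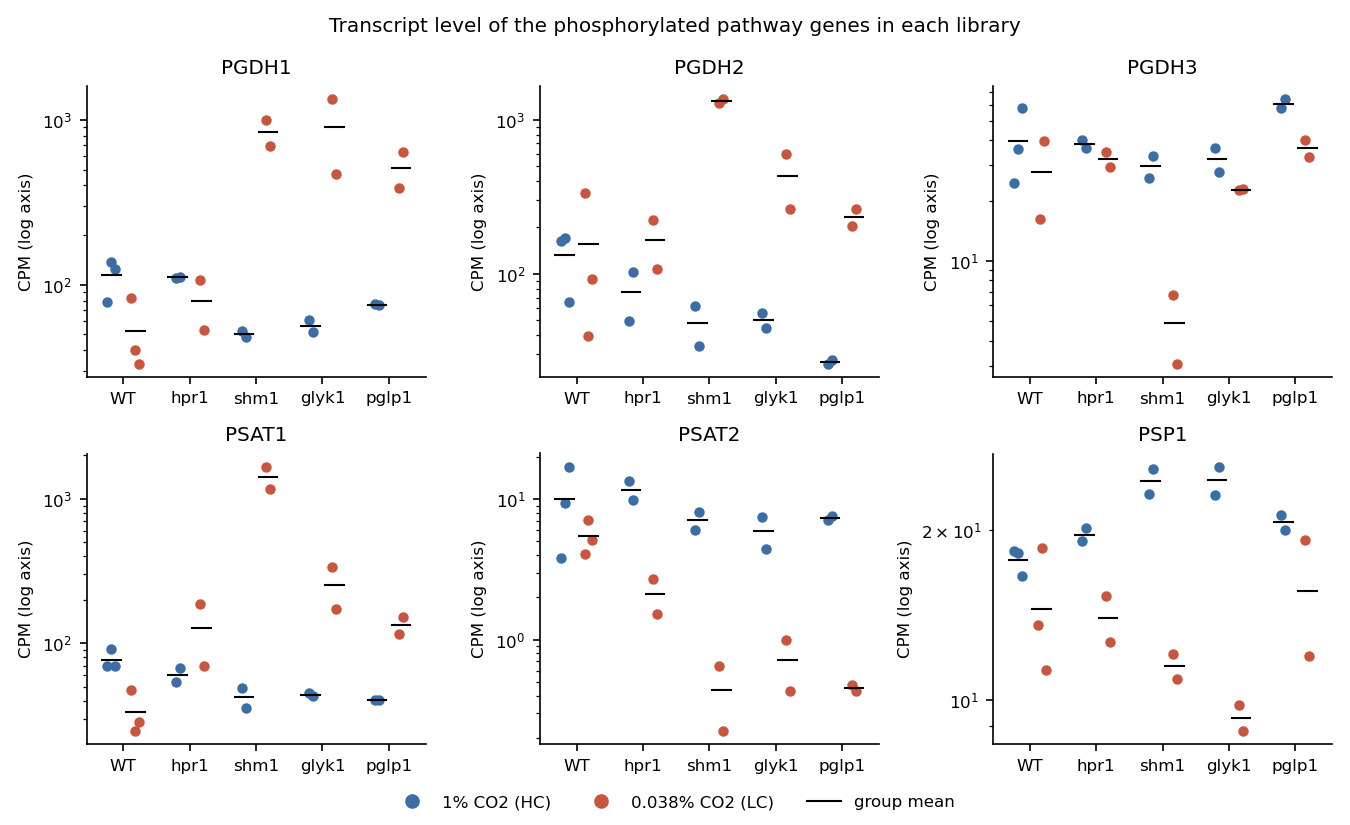
Level of each member in CPM (TMM-normalised, log axis) in each of 22 libraries, by genotype, with HC in blue and LC in red and a bar at the group mean. In the panels of PGDH1 and PSAT2 the 6 LC libraries of shm1, glyk1 and pglp1 lie apart from the other 16. They are at 385 to 1336 CPM for PGDH1 and 0.223 to 0.991 CPM for PSAT2. The share of all loci that lie apart in this way was not counted. PGDH3 has no point for WT LC replicate 3.

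PGDH1 is the dehydrogenase isoform known in Arabidopsis for its essential role in embryos and pollen. In HC its level was 78.6, 138 and 125 CPM in WT, 110 and 112 CPM in hpr1, 52.6 and 47.8 CPM in shm1, 61.1 and 51.6 CPM in glyk1 and 75.8 and 74.9 CPM in pglp1. In LC it was 83.3, 39.9 and 33.1 CPM in WT, 106 and 53.3 CPM in hpr1, 997 and 692 CPM in shm1, 1336 and 468 CPM in glyk1 and 385 and 639 CPM in pglp1. All 6 LC libraries of shm1, glyk1 and pglp1 were above the other 16, whose highest value was 138 CPM. For this and the like separations given below, the share of all loci that lie apart in the same way was not counted. Between LC and HC, 65.8% of loci were called in shm1, 54.4% in glyk1 and 56.1% in pglp1. PGDH1 rose 16.8-fold from HC to LC in shm1 (log2 fold change 4.07 ± 0.56 SE, adjusted p = 1.62e-05), 16.0-fold in glyk1 (4.00 ± 0.56, adjusted p = 3.18e-05) and 6.79-fold in pglp1 (2.76 ± 0.53, adjusted p = 0.00041). Against WT in LC the log2 differences were 4.02 ± 0.47 in shm1, 4.11 ± 0.48 in glyk1 and 3.29 ± 0.46 in pglp1, with adjusted p from 3.61e-06 to 2.01e-05. In hpr1 the range in LC overlapped that of WT (0.60 ± 0.45 against WT, adjusted p = 0.487). The fold in glyk1 rests on unequal libraries, 1336 and 468 CPM, and the glyk1 and shm1 ranges overlap.

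PGDH2 encodes another plastid dehydrogenase. In HC it stood at 164, 170 and 65.2 CPM in WT, 49.2 and 102 CPM in hpr1, 61.4 and 34.2 CPM in shm1, 55.7 and 44.3 CPM in glyk1 and 26.1 and 27.4 CPM in pglp1. The LC values were 336, 39.2 and 92.3 CPM in WT, 224 and 107 CPM in hpr1, 1273 and 1356 CPM in shm1, 601 and 263 CPM in glyk1 and 203 and 263 CPM in pglp1. In WT in LC the highest library was 8.58 times the lowest, so PGDH2 has the least certain WT level in LC of the 6 members. Within each of shm1, glyk1 and pglp1 the LC libraries lay above the HC libraries: PGDH2 rose 27.5-fold in shm1 (4.78 ± 0.87, adjusted p = 0.000198), 8.63-fold in glyk1 (3.11 ± 0.80, adjusted p = 0.00429) and 8.71-fold in pglp1 (3.12 ± 0.81, adjusted p = 0.00406). The glyk1 call was lost without its LC replicate 1 (2.32, adjusted p = 0.0503). Against WT in LC only shm1 was called (3.07 ± 0.69, adjusted p = 0.00107), with 1.47 ± 0.67 in glyk1 (adjusted p = 0.0736) and 0.58 ± 0.67 in pglp1 (adjusted p = 0.474). Without WT LC replicate 1, the library at 336 CPM, these became 2.63 (adjusted p = 0.00143) and 1.77 (adjusted p = 0.0136).

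PGDH3, the remaining dehydrogenase gene, was called higher in no comparison. Its HC levels were 24.4, 36.3 and 58.0 CPM in WT, 40.1 and 36.6 CPM in hpr1, 26.0 and 33.4 CPM in shm1, 36.6 and 27.9 CPM in glyk1 and 57.7 and 64.1 CPM in pglp1. In LC it stood at 16.1 and 39.6 CPM in the 2 usable WT libraries, 35.1 and 29.5 CPM in hpr1, 22.5 and 22.9 CPM in glyk1, 40.3 and 33.0 CPM in pglp1, and 6.75 and 3.07 CPM in shm1. Only the shm1 LC libraries lay below all others. There PGDH3 fell to 0.166 of its HC level (log2 fold change -2.59 ± 0.45, adjusted p = 0.000171) and to 0.179 of the WT level in LC (-2.49 ± 0.45, adjusted p = 0.000226). In glyk1 and pglp1 the LC against HC values were -0.51 ± 0.43 (adjusted p = 0.332) and -0.73 ± 0.43 (adjusted p = 0.163). With the compared groups fitted alone both were called lower, at -0.58 in glyk1 (adjusted p = 0.0377) and -0.63 in pglp1 (adjusted p = 0.0139). With the rows of WT LC replicate 3 taken as deposited, both shm1 calls were lost while the values stayed at -2.69 (adjusted p = 0.0625) and -2.02 (adjusted p = 0.121).

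The make-up of the dehydrogenase transcripts was measured per length with the authors' RPKM, a read level scaled by transcript length and library size. Of the summed RPKM of the PGDH genes, PGDH3 made up 16.08% ± 8.22 (SD, n = 3) in WT in HC and 39.83% ± 1.76 (n = 2) in pglp1 in HC. In LC its share was 0.26% ± 0.12 in shm1, 2.36% ± 1.52 in glyk1 and 5.55% ± 2.29 in pglp1 (n = 2 each), but 4.43% and 36.57% in the 2 WT libraries. PGDH1 held the largest share in LC in glyk1 (68.22% ± 4.30) and pglp1 (67.61% ± 5.01), whereas in shm1 PGDH2 did, with 57.34% ± 7.42 against 42.40% ± 7.30. Averaged over the 5 genotypes, the PGDH3 share was 16.8 percentage points lower in LC (lower in 4 of 5 genotypes; exact two-sided permutation of CO2 labels within genotype, adjusted p = 0.013 over 4 shares) and the PGDH2 share 14.0 points higher (higher in 4 of 5, adjusted p = 0.0248). The PGDH1 share differed by 2.8 points (adjusted p = 0.595), made of -14.2 points in WT, -20.7 in hpr1, 1.4 in shm1, 26.0 in glyk1 and 21.5 in pglp1. The calls on PGDH2 and PGDH3 were lost without WT LC replicate 1 (9.5 points, adjusted p = 0.155, and -13.6 points, adjusted p = 0.0775), and that on PGDH2 also without WT HC replicate 3 (12.1 points, adjusted p = 0.061).

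**Figure D2:**
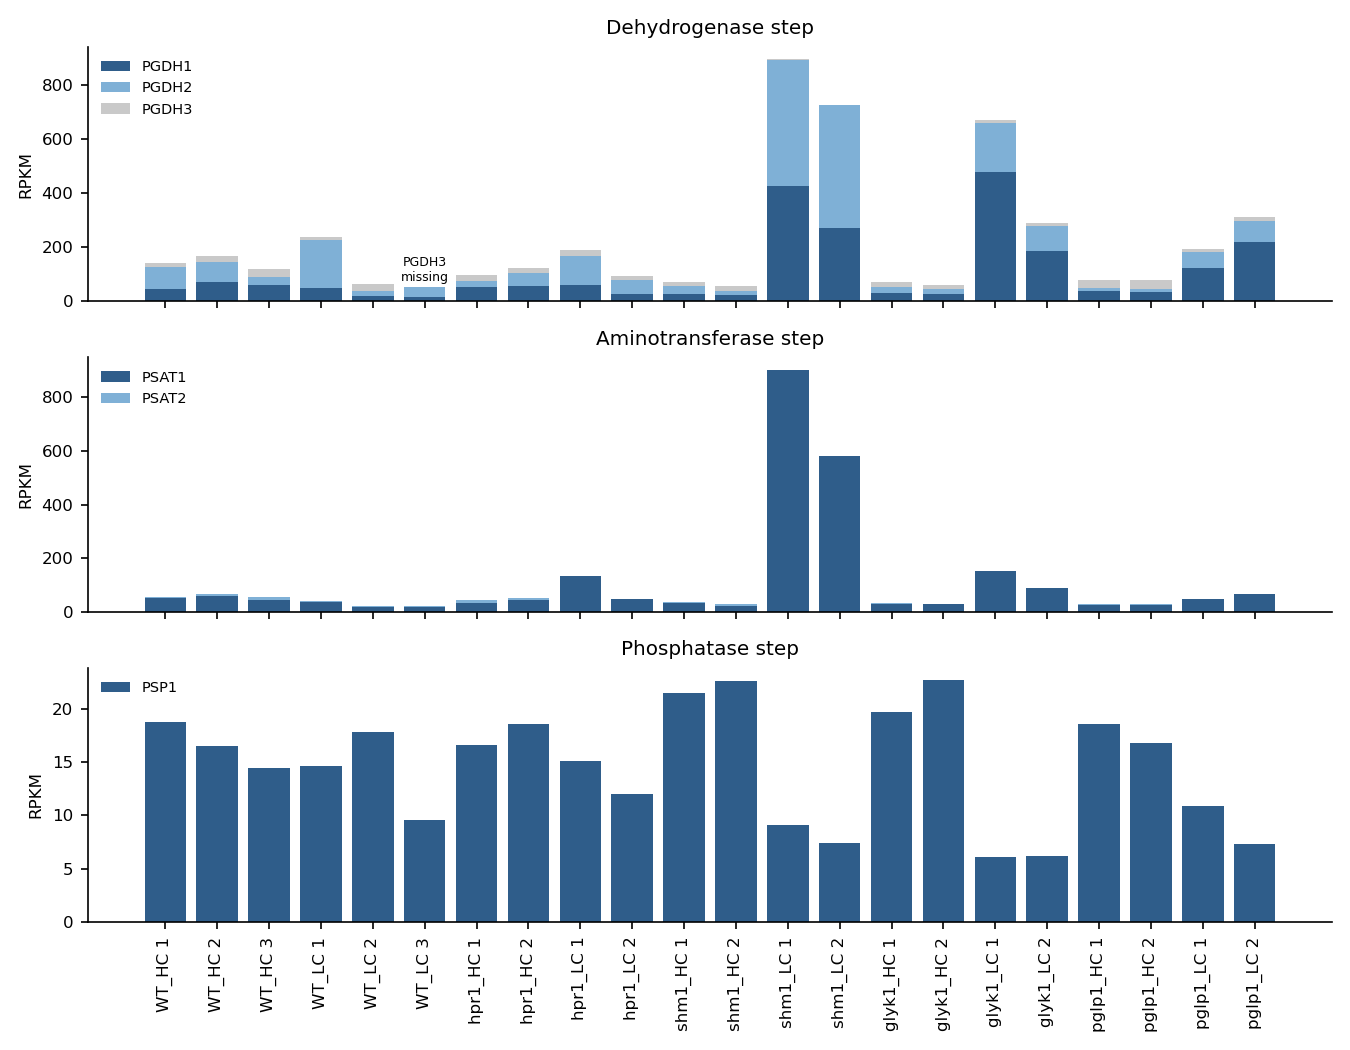
Authors' RPKM of the genes of each step in each library, stacked by gene, with a scale of its own for each panel. The dehydrogenase bars reach 897 RPKM and the aminotransferase bars 905 RPKM in shm1 in LC, while PSP1 lies between 6.12 and 22.7 RPKM; the PGDH bar of WT LC replicate 3 lacks PGDH3.

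PSAT1, the main aminotransferase of the pathway, was called higher than WT in LC in shm1, glyk1, pglp1 and, less firmly, hpr1. Its HC levels were 70.2, 91.7 and 69.6 CPM in WT, 54.0 and 67.4 CPM in hpr1, 48.9 and 35.8 CPM in shm1, 45.2 and 43.2 CPM in glyk1 and 40.8 and 40.9 CPM in pglp1. In LC it was 47.4, 24.7 and 28.7 CPM in WT, 186 and 70.0 CPM in hpr1, 1671 and 1173 CPM in shm1, 337 and 173 CPM in glyk1 and 117 and 152 CPM in pglp1. Every mutant library in LC was above every WT library in LC, and shm1 stood apart from all other groups. PSAT1 rose 33.6-fold from HC to LC in shm1 (5.07 ± 0.50, adjusted p = 9.83e-07), 5.77-fold in glyk1 (2.53 ± 0.44, adjusted p = 0.000226) and 3.30-fold in pglp1 (1.72 ± 0.43, adjusted p = 0.00329). In hpr1 the LC against HC value was 1.08 ± 0.42 (adjusted p = 0.0917 in edgeR, 0.0411 in DESeq2). In WT it was -1.20 ± 0.35 (adjusted p = 0.277), so the lower WT level enters the differences from WT in LC. Against WT in LC it was 42.2-fold higher in shm1 (5.40 ± 0.42, adjusted p = 1.08e-07), 7.58-fold in glyk1 (2.92 ± 0.39, adjusted p = 1.74e-05), 4.00-fold in pglp1 (2.00 ± 0.38, adjusted p = 0.000329) and 3.80-fold in hpr1 (1.93 ± 0.38, adjusted p = 0.0152). It was the only member called in hpr1 against WT in LC, and that call depended on single libraries: without hpr1 LC replicate 1, the shallowest library, the value was 1.05 (adjusted p = 0.238), and without WT LC replicate 2 it was 1.74 (adjusted p = 0.0516). The call was also lost without both WT replicate 3 libraries (1.82, adjusted p = 0.0536) and with only hpr1 and WT in LC in the fit (1.90, adjusted p = 0.419). That last fit called 0 of all loci, against 594 in the main fit.

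PSAT2, the aminotransferase paralogue, moved against PSAT1. Its HC levels were 3.78, 9.38 and 17.0 CPM in WT, 13.5 and 9.86 CPM in hpr1, 6 and 8.11 CPM in shm1, 7.47 and 4.38 CPM in glyk1 and 7.10 and 7.62 CPM in pglp1. In LC it was 4.07, 7.15 and 5.13 CPM in WT, 2.72 and 1.53 CPM in hpr1, 0.651 and 0.223 CPM in shm1, 0.991 and 0.430 CPM in glyk1 and 0.472 and 0.429 CPM in pglp1. The 8 mutant LC libraries were the lowest of the 22, and the share of all loci with such an order was not counted. These levels rest on few reads: 114 and 12 counts in shm1, 56 and 21 in glyk1, 19 and 160 in hpr1, and 4 and 5 in pglp1. From HC to LC PSAT2 fell to 0.0656 of its level in shm1 (-3.93 ± 0.66, adjusted p = 8.98e-05), 0.121 in glyk1 (-3.05 ± 0.64, adjusted p = 0.000915), 0.0611 in pglp1 (-4.03 ± 0.78, adjusted p = 0.000456) and 0.170 in hpr1 (-2.56 ± 0.64, adjusted p = 0.02). The hpr1 call was lost without HC replicate 1 (-2.30, adjusted p = 0.164), HC replicate 2 (-2.77, adjusted p = 0.051) or LC replicate 2 (-2.11, adjusted p = 0.17). Against WT in LC the differences were -3.55 ± 0.63 in shm1, -2.92 ± 0.61 in glyk1 and -3.59 ± 0.75 in pglp1 (adjusted p from 0.000142 to 0.000953), and -1.44 ± 0.60 in hpr1 (adjusted p = 0.21).

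Per length, PSAT1 outnumbered PSAT2 in all 22 libraries. The ratio of their RPKM was 3.55 to 16.5 over the HC libraries and 3.08 to 10.4 in WT in LC, and in LC it reached 40.6 and 60.9 in hpr1, 221 and 316 in pglp1, 303 and 359 in glyk1 and 2285 and 4678 in shm1. All 8 mutant LC libraries were above the other 14. As a share of the aminotransferase RPKM, PSAT1 went from 78.01% to 94.29% over the HC libraries to 97.60% to 99.98% in the mutants in LC. Averaged over genotypes that share was 11.4 points higher in LC (higher in 4 of 5 genotypes, with WT at -4.2 points; exact two-sided permutation within genotype, adjusted p = 0.0102).

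**Figure D3:**
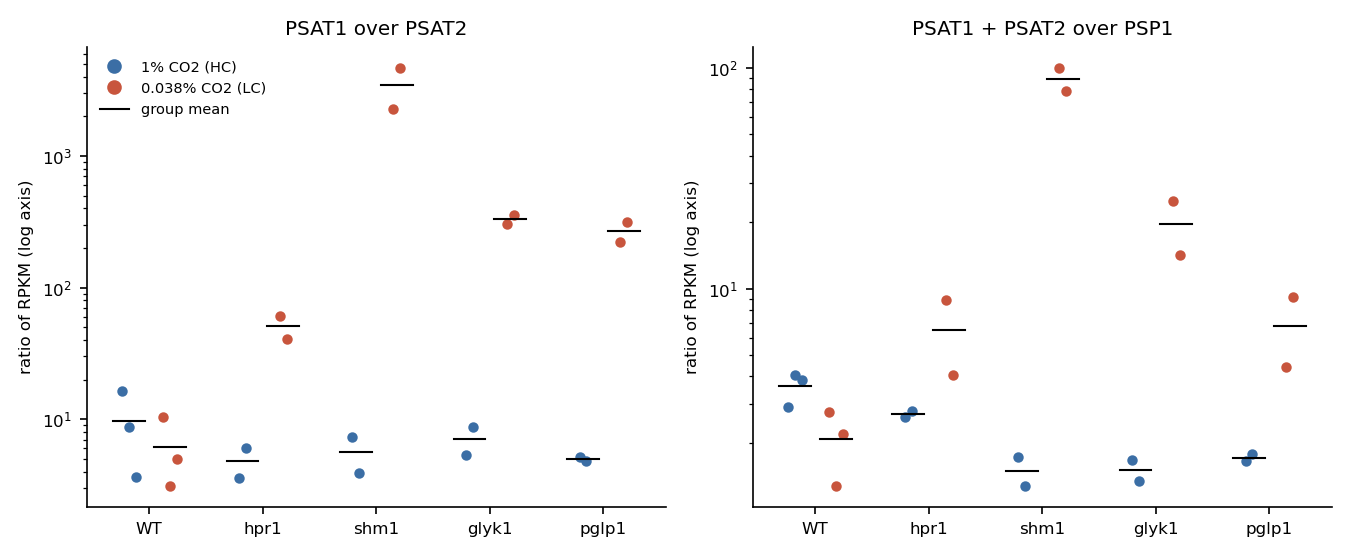
Ratio of RPKM per library on log axes, PSAT1 over PSAT2 at left and the summed PSAT genes over PSP1 at right, with HC in blue, LC in red and a bar at the group mean. Both ratios are highest in shm1 in LC, at 2285 and 4678 and at 78.5 and 99.7.

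PSP1, the only phosphatase gene of the pathway, had the smallest ratio of highest to lowest level of the members, with 8.82 to 25.9 CPM over all libraries. Its HC levels were 18.4, 18.2 and 16.6 CPM in WT, 19.1 and 20.2 CPM in hpr1, 23.2 and 25.7 CPM in shm1, 23.1 and 25.9 CPM in glyk1 and 21.3 and 20.0 CPM in pglp1. In LC they were 13.6, 18.6 and 11.3 CPM in WT, 15.3 and 12.7 CPM in hpr1, 12.1 and 10.9 CPM in shm1, 9.80 and 8.82 CPM in glyk1 and 19.2 and 12 CPM in pglp1. The glyk1 LC libraries were the lowest of the 22. PSP1 fell from HC to LC in shm1 (-1.09 ± 0.23, adjusted p = 0.000718) and in glyk1 (-1.40 ± 0.23, adjusted p = 0.00015), and had values of -0.41 ± 0.24 in pglp1 (adjusted p = 0.155) and -0.50 ± 0.23 in hpr1 (adjusted p = 0.145). Against WT in LC only glyk1 was called (-0.64 ± 0.21, adjusted p = 0.0199), and the call was lost without WT LC replicate 2 (adjusted p = 0.059) or without either glyk1 LC library (adjusted p = 0.0561 and 0.0754) and with only glyk1 and WT in LC in the fit (-0.65, adjusted p = 0.126).

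The levels of the steps were compared as ratios of RPKM, with no test. In WT the summed RPKM of the PSAT genes was 3.60 ± 0.608 times that of PSP1 in HC and 2.07 ± 0.75 times in LC (SD, n = 3 each). In LC the ratio was 89.1 ± 15 in shm1, 19.6 ± 7.63 in glyk1, 6.79 ± 3.36 in pglp1 and 6.49 ± 3.40 in hpr1 (n = 2 each). The lowest of these 8 libraries was at 4.08, above every mutant library in HC (1.27 to 2.80) and next to the highest WT library in HC (4.05). PGDH1 and PGDH2 together were 7.31 ± 1.42 times PSP1 in WT in HC, and in LC 7.85 ± 6.93 times in WT, 8.80 ± 3.22 times in hpr1, 98.3 ± 0.315 times in shm1, 76.5 ± 44.8 times in glyk1 and 28.8 ± 17.3 times in pglp1. The highest WT library in LC was at 15.6 and the lower pglp1 library at 16.6. The order of the mutants differed by step: shm1 had the highest aminotransferase levels, 581 and 905 RPKM against 88.6 and 153 RPKM in glyk1, whereas for PGDH1 alone shm1 and glyk1 overlapped at 271 to 427 RPKM and 188 to 478 RPKM.

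**Figure D4:**
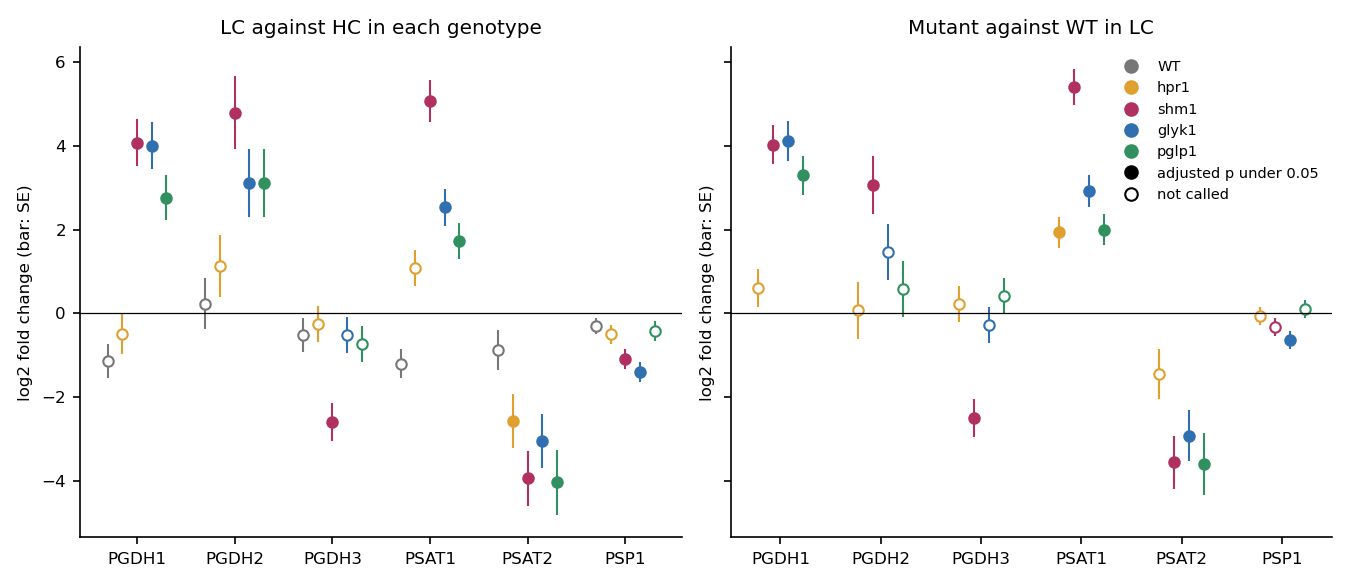
Log2 fold change of each member with its SE, LC against HC in each genotype at left and each mutant against WT in LC at right; filled points have an adjusted p under 0.05. PGDH1, PGDH2 and PSAT1 lie above 0 and PSAT2 below 0 in shm1, glyk1 and pglp1 in both panels, and PGDH3 is filled in shm1 only, in the fit of all groups together.

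In HC no member was called in any mutant against WT. The 0 members called stood against 0.00489% of loci in hpr1, 0.0196% in shm1, 0.00489% in glyk1 and 4.01% in pglp1. At an unadjusted p under 0.05 the HC comparisons held 0 members and 545 loci in hpr1, 3 and 2006 in shm1, 2 and 2260 in glyk1, and 2 and 4313 in pglp1, and DESeq2 called 0 members in hpr1, shm1 and glyk1 and 1 in pglp1. That member was PGDH2, whose pglp1 libraries at 26.1 and 27.4 CPM were below all other libraries (-2.32 ± 0.75, adjusted p = 0.0885 in edgeR). PSAT1 was lower than in every WT library in all 8 mutant HC libraries, by -0.35 ± 0.39 in hpr1 to -0.92 ± 0.40 in pglp1, with adjusted p from 0.194 to 1. In the same libraries PSP1 was above every WT library, at 19.1 to 25.9 CPM against 16.6 to 18.4 CPM. The differences were 0.15 ± 0.21 to 0.47 ± 0.21, with adjusted p of 0.424 or more in edgeR. The share of all loci that separate the mutant from the WT libraries in HC was not counted. Neither separation is therefore read as a difference of the member.

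The authors' deposited table also holds their own comparisons. Whether these used the displaced rows of WT LC replicate 3 was not checked. Between LC and HC it had 0 members at q under 0.05 in WT and PSAT2 in hpr1. There were 5 members in shm1 (all but PSP1), 5 in glyk1 (all but PGDH3) and 4 in pglp1. All of these were also called here. In that deposited table the comparisons with WT in LC held fewer members: 1 in shm1, PSAT1, and 0 in the other mutants. For HC it held PGDH2 in pglp1 alone. The share of all loci at q under 0.05 in that deposited table was not counted. These counts are therefore not read as a result about the members.

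Several members have neighbours whose reads could mix with theirs, because the library kit does not mark the strand. PSAT1 overlaps SERAT3;2 (AT4G35640), on the other strand, by 144 bases, and PSAT2 ends 12 bases from SERAT3;1 (AT2G17640), also on the other strand. Both neighbours encode serine acetyltransferases, which acetylate serine for cysteine synthesis. SERAT3;2 ran at 0.223 to 16.4 CPM and was lower in shm1 against WT in LC (-1.71 ± 0.57, adjusted p = 0.0155 in edgeR), where PSAT1 was highest. From HC to LC it rose in glyk1 (2.33 ± 0.61, adjusted p = 0.00467), as PSAT1 did. In pglp1 it was higher than WT in HC (3.55 ± 0.54, adjusted p = 0.00311), and its response was below that of WT (-2.77 ± 0.79, adjusted p = 0.0104). The part of its reads in the PSAT1 values was not tested. SERAT3;1 ran at 4.03 to 14.1 CPM and was not called in any mutant against WT in LC (-0.13 to 0.36), where PSAT2 fell in 3 of 4. PGDH2 shares 1020 bases with AT1G17744, which reached at most 0.171 CPM. PGDH3 shares 171 bases with AT3G19490 (25.0 to 106 CPM), PSP1 291 bases with AT1G18630 (3.18 to 10.0 CPM) and PGDH1 6 bases with AT4G34190. PSAT1 also overlaps AT4G09225 by 754 bases and PGDH2 overlaps AT1G05317 by 2272 bases, both on the other strand, and these loci have no row among those analysed here. Reads in all these overlaps cannot be told apart.

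Over the 10 group means of log2 CPM, PGDH1, PGDH2 and PSAT1 followed each other, with Pearson's r of 0.85 for PGDH1 and PGDH2, 0.87 for PGDH1 and PSAT1 and 0.93 for PGDH2 and PSAT1. PSAT2 ran opposite to these 3 (r of -0.82 to -0.86), as did PGDH3 to PGDH2 and PSAT1 (-0.83 each). The 10 points share their libraries and are spread mainly by the LC groups of shm1, glyk1 and pglp1, so these r describe the pattern only. Among 14481 other loci with a mean of at least 1 CPM, those most like PGDH1 were GAPC1, a cytosolic glyceraldehyde-3-phosphate dehydrogenase (r = 0.987), UBP23, a ubiquitin protease (0.983), and IDH-V, an isocitrate dehydrogenase subunit (0.982). PGDH2 was most like ATMDAR2 (0.977), the rhamnose synthesis gene RHM1 (0.977) and AT1G73810 (0.976). Those most like PSAT1 were GSH2, glutathione synthetase (0.991), ADC1, an arginine decarboxylase (0.987), and AT4G02940 (0.984). PGDH3 was compared with the 3124 loci fitted on the same 21 libraries, and most like it were the Calvin-Benson cycle enzyme SBPASE (0.986), the plastid ribosomal protein PSRP5 (0.982) and AT3G59780 (0.980). PSAT2 was most like AT3G02820 (0.994), AT4G38660 (0.992) and TRM17 (0.991), and PSP1 was most like AT5G11980 (0.985), AT5G49215 (0.963) and EOL2 (0.958).

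Genes that make or consume serine by other routes are described by counts, since their lists were drawn up with earlier results of these data known. They are read against the share of all loci called in the same comparison, 66.6% in shm1, 55.7% in glyk1, 60.2% in pglp1 and 2.90% in hpr1 against WT in LC. In the mitochondrial route, 2 of 10 genes of glycine decarboxylase and SHM1 and SHM2 were higher and 8 lower in shm1 against WT in LC (median log2 difference -2.06, with -0.01 over all loci), including SHM1 itself (-5.33 ± 0.47). The same 10 genes split into 3 higher and 3 lower in glyk1 (median 0.06, all loci -0.05), 2 and 2 in pglp1 (median 0.00, all loci -0.23) and 0 and 0 in hpr1 (median -0.15, all loci 0.00). The decarboxylase subunit gene mtLPD2 was higher in shm1 (2.36 ± 0.30), glyk1 (2.12 ± 0.30) and pglp1 (1.62 ± 0.30). SHM2 was lower in glyk1 (-1.75 ± 0.39) and pglp1 (-2.41 ± 0.41). Of the 5 other SHM genes, 2 were higher in each of shm1, glyk1 and pglp1, namely SHM6 and SHM7. In hpr1 1 was higher, SHM7. Lower were 1 in shm1, 1 in glyk1, 2 in pglp1 and 0 in hpr1. The medians were 1.77, 1.63, -0.23 and 0.48, and in pglp1 the median of all loci was also -0.23. SHM7 differed from WT in LC by 1.91 ± 0.33 in shm1, 3.76 ± 0.35 in glyk1, 4.18 ± 0.35 in pglp1 and 2.11 ± 0.33 in hpr1. In pglp1 it was already higher than WT in HC (2.77 ± 0.34, adjusted p = 0.000684), and its LC against HC change exceeded that of WT by 1.41 ± 0.48 there, against 2.03 ± 0.48 in shm1 and 4.08 ± 0.49 in glyk1. SHM4, the cytosolic form, was lower by -1.49 ± 0.30, -1.69 ± 0.30 and -1.69 ± 0.31 in shm1, glyk1 and pglp1. In plastid glycolysis, which can supply 3-phosphoglycerate, 1 of 4 genes was higher in each of these 3 mutants: GAPCP2, by 4.10 ± 0.46 in shm1, 1.87 ± 0.44 in glyk1 and 3.19 ± 0.45 in pglp1. In shm1 2 of the 4 were lower, PGK2 (-3.25 ± 0.41) and PGK1 (-2.60 ± 0.36), and the list's median was -1.54 in shm1, -0.48 in glyk1, -0.10 in pglp1 and -0.10 in hpr1.

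Tryptophan synthesis consumes serine in its last step, where tryptophan synthase beta (TSB1, TSB2) joins indole and serine. Of its 8 genes, 7 were higher and 1 lower against WT in LC both in shm1 (median 4.00) and in glyk1 (median 2.72), 2 higher and 2 lower in pglp1 (median 0.20) and 2 higher in hpr1 (median 1.25). ASA1, an anthranilate synthase subunit, differed by 5.25 ± 0.35 in shm1, 4.11 ± 0.33 in glyk1 and 1.50 ± 0.31 in hpr1, and in pglp1 it was at 0.16 ± 0.32 (adjusted p = 0.686). TSB1 was higher in shm1 (3.28 ± 0.29), glyk1 (2.68 ± 0.29) and pglp1 (1.38 ± 0.28). In pglp1 ASB1 was also higher (3.43 ± 0.46) and ASA2 lower (-1.83 ± 0.19). Against WT in HC, 2 of the 8 genes were already lower in pglp1 (median -1.37), ASA1 (-1.46 ± 0.33) and ASB1 (-1.84 ± 0.48). The LC against HC change of pglp1 was above that of WT in 5 of the 8 and below it in 1 (median 1.50). Of all loci 42.7% were called in that test. The indole glucosinolates are made from tryptophan. Of 5 genes of that branch, 4 were higher in shm1 (median 2.08) and in glyk1 (median 1.35) and 2 in hpr1 (median 1.19), while in pglp1 4 were lower and 0 higher (median -0.98). CYP79B2, the first enzyme of the branch, differed by 4.55 ± 0.46 in shm1, 2.86 ± 0.44 in glyk1 and 2.05 ± 0.43 in hpr1 but by -2.46 ± 0.50 in pglp1. In pglp1 CYP79B2 was already lower than WT in HC (-2.15 ± 0.48, adjusted p = 0.0221), as were 3 of the 5 genes (median -1.84). The LC against HC change of pglp1 differed from that of WT in 0 of the 5 (median 0.76), and for CYP79B2 by -0.31 ± 0.64 (adjusted p = 0.724). The regulator MYB51 was higher in shm1 (4.52 ± 0.42), glyk1 (3.28 ± 0.40) and hpr1 (1.65 ± 0.39). The 6 MYB genes listed were drawn up for glucosinolates in general, not for the indole branch alone. Of these, 2 were higher and 4 lower in shm1, 2 and 4 in glyk1, 0 and 1 in pglp1 and 1 and 0 in hpr1. The medians were -3.44, -2.56, -0.50 and -0.88. MYB122 was higher in shm1 (7.58 ± 1.12), and MYB28 was lower in shm1 (-3.89 ± 0.37) and glyk1 (-2.49 ± 0.34).

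Sulfate reduction supplies the sulfide that turns acetylated serine into cysteine. Of 5 genes of sulfate reduction and activation, 5 were higher in shm1 against WT in LC (median 2.74), 3 in glyk1 (median 1.60), 4 in pglp1 (median 2.78) and 1 in hpr1 (median 0.69), and 0 were lower. The APS reductase APR3 differed by 4.00 ± 0.36 in shm1, 2.37 ± 0.34 in glyk1, 4.62 ± 0.37 in pglp1 and 2.29 ± 0.34 in hpr1. In pglp1 APR3 too was higher than WT in HC (2.71 ± 0.35, adjusted p = 0.000889), and its LC against HC change exceeded that of WT by 1.90 ± 0.49, against 4.69 ± 0.51 in shm1 and 3.40 ± 0.50 in glyk1. Of 8 genes that make cysteine from serine, 2 were higher and 3 lower in shm1 (median 0.01), near the share of all loci, and 2 in glyk1 (median 0.45), 3 in pglp1 (median 0.65) and 1 in hpr1 (median 0.44) were higher with 0 lower. The serine acetyltransferase SERAT2;1 was higher in all 4 mutants, by 6.01 ± 0.35 in shm1, 3.50 ± 0.32 in glyk1, 1.82 ± 0.31 in pglp1 and 1.78 ± 0.31 in hpr1. Of 3 genes that put serine into lipids or amines, 3 were higher in shm1, 2 in glyk1, 2 in pglp1 and 0 in hpr1 (medians 2.78, 1.91, 2.78 and 0.61). Phosphatidylserine synthase PSS1 differed by 4.39 ± 0.39, 2.64 ± 0.37 and 3.74 ± 0.38 in the first 3, and the serine palmitoyltransferase subunit LCB1 by 2.78 ± 0.23, 1.91 ± 0.23 and 2.78 ± 0.23. The values with SE that carry no p of their own in these last paragraphs had adjusted p under 0.05 in edgeR's test.

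**Figure D5:**
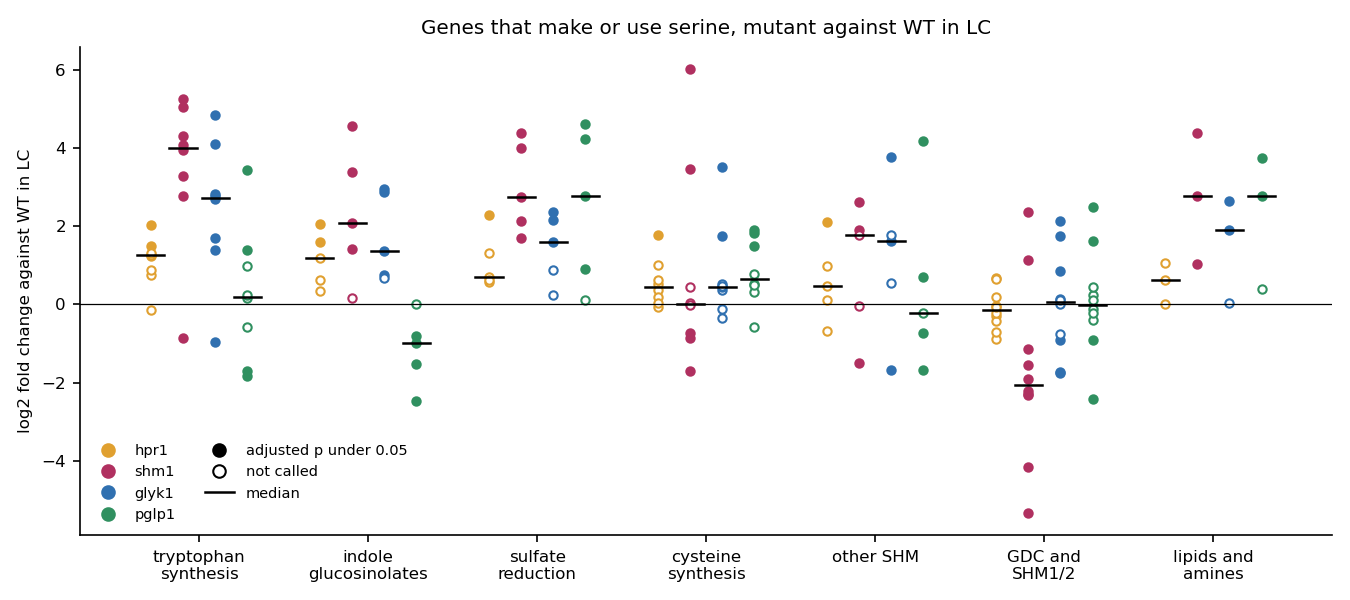
Log2 fold change against WT in LC of each gene of 7 lists of serine-making or serine-using genes, by mutant, with filled points for an adjusted p under 0.05 and a bar at the list's median. The pglp1 points of the indole glucosinolate list lie at or below 0, with a median of -0.98, while those of shm1, glyk1 and hpr1 lie above 0.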

How the data were processed

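PolyA RNA from mature leaves was sequenced from libraries of a kit without strand information, per the labels' protocols. The deposited table holds the authors' raw counts per locus, RPKM values, and log2 fold changes and q-values of their comparisons, per the file headers. CASAVA 1.8, edgeR, TAIR9 and TAIR10 are named in the submitters' processing notes, with no aligner among them and no word on which libraries were read at which length. The deposited length column did not match the rows and was not used.

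Counts were filtered (filterByExpr), normalised by TMM and tested with edgeR 4.0.16 (glmQLFit, robust) in R 4.3.3 as 10 group means, 22 libraries together. Each locus on a displaced row of WT LC replicate 3 was fitted without that library (3612 loci; 16837 with all), and p-values were adjusted over the 20449. SE is the log2 fold change divided by the square root of F. On simulated data for pglp1 LC against HC (16436 loci), 77.5% of 200 loci changed 4-fold were recovered, with 6 false calls. The 200 were picked above a floor on expression, and all other loci had the same mean in every group. In the real contrast 56.1% of loci were called. The run therefore does not measure recovery or false calls where most loci change, or recovery at low counts. The alternatives tried were DESeq2 1.42.0, median-ratio size factors, no filter, the rows as deposited, the compared groups alone, a replicate block, and each library left out. Between HC and LC, the deviations of same-numbered WT libraries from their group means had r = 0.47, 0.18 and 0.408. Libraries of unlike number were not compared, so these r cannot show whether the numbers pair the libraries. The labels say nothing on pairing. In the mutants r was -0.254 to 0.109.

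Shares use RPKM, with exact permutation within genotype. Sequences came from the RefSeq annotation of TAIR10.1. The members and lists were chosen with earlier results of these data known. Genes named are the 6 members, from each list up to 3 loci with the smallest adjusted p among those called, with such a locus then given in the other mutants, and the 3 loci most like each member. SERAT3;1, SERAT3;2, the other genes named as neighbours, and TSB2 fall outside that rule. Few counts limit PSAT2 in the mutants in LC (as few as 4 in a library), and so does the spread between its libraries.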

Additional observations from a re-analysis of the deposited data

Results flagged for a closer look

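The LC against HC change of a member differed between a mutant and WT in 15 cases, tested as an interaction term in edgeR's model (adjusted p under 0.05). Of all loci, 54.1% were called in that test in shm1, 38.8% in glyk1, 42.7% in pglp1 and 0.0734% in hpr1. All 4 tests of a mutant's response use the same WT libraries. PGDH1 responded more in shm1 (log2 difference 5.20 ± 0.68, adjusted p = 3.01e-05), glyk1 (5.13 ± 0.68, adjusted p = 4.94e-05) and pglp1 (3.89 ± 0.67, adjusted p = 0.000284). For PGDH2 the differences were 4.55 ± 1.01 in shm1 (adjusted p = 0.00154), 2.88 ± 0.98 in glyk1 (adjusted p = 0.0298) and 2.89 ± 0.98 in pglp1 (adjusted p = 0.027). PSAT1 had the widest difference, 6.27 ± 0.60 in shm1 (adjusted p = 3.08e-06), with 3.73 ± 0.56 in glyk1 (adjusted p = 0.000132) and 2.92 ± 0.56 in pglp1 (adjusted p = 0.00066).

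Differences in the other direction were -3.05 ± 0.78 in shm1 (adjusted p = 0.00395), -2.17 ± 0.77 in glyk1 (adjusted p = 0.0368) and -3.15 ± 0.92 in pglp1 (adjusted p = 0.012) for PSAT2. They were -0.79 ± 0.30 in shm1 (adjusted p = 0.0337) and -1.10 ± 0.30 in glyk1 (adjusted p = 0.00869) for PSP1, and -2.08 ± 0.58 in shm1 for PGDH3 (adjusted p = 0.0076). Leaving out 1 library ended some of these calls. PGDH2 in glyk1 was lost without WT HC replicate 1 or 2, WT LC replicate 3, either glyk1 HC library or glyk1 LC replicate 1 (2.10 to 3.05, adjusted p 0.0575 to 0.171). In pglp1 it was lost without WT HC replicate 1 or 2, WT LC replicate 3, either pglp1 HC library or pglp1 LC replicate 2 (2.61 to 3.11, adjusted p 0.052 to 0.0888). PSAT2 in glyk1 was lost without WT HC replicate 2, WT LC replicate 2, glyk1 HC replicate 1 or glyk1 LC replicate 2 (-2.24 to -1.73, adjusted p 0.0529 to 0.148), and in pglp1 without either of its LC libraries (-3.03 and -2.90, adjusted p 0.0506 and 0.0653). PSP1 in shm1 was lost without WT HC replicate 3, WT LC replicate 2, shm1 HC replicate 2, shm1 LC replicate 2, pglp1 HC replicate 2 or glyk1 LC replicate 1 (-0.83 to -0.64, adjusted p 0.0505 to 0.136), and PGDH3 in shm1 without WT LC replicate 2 (-1.29, adjusted p = 0.0627). The other 9 differences kept their calls when any 1 library was left out. With the compared groups alone in the fit, the calls were lost for PGDH2 in glyk1 (2.79, adjusted p = 0.105) and pglp1 (2.99, adjusted p = 0.0603), PSAT2 in glyk1 (-2.25, adjusted p = 0.0691), PSP1 in shm1 (-0.84, adjusted p = 0.0657) and PGDH3 in shm1 (-2.10, adjusted p = 0.0547). With rows as deposited, PGDH3 in shm1 was at -1.62 (adjusted p = 0.374).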

How the results depend on the processing

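Of 71 results of single members (44 called), each under up to 30 settings, 2051 values kept direction and side of the threshold, 46 lost a call, 14 gained one and 19 reversed, the last only among results not called. The number of called members changed by over 1.5 times as follows. In hpr1 LC against HC, DESeq2 called 2 in place of 1, and leaving out a library gave 0 to 1. Over all loci DESeq2 called 4730 there and the main fit 3148. In hpr1 against WT in LC, 0 in place of 1 were called with the compared groups alone, without both WT replicate 3 libraries, and with a crossed replicate block, and 0 to 1 with a library left out. The fit of the compared groups alone called 0 of all loci there, against 594 in the main fit. DESeq2 called 1 in place of 0 for pglp1 against WT in HC (0 to 1 with a library left out) and for the hpr1 response (0 to 1). Over all loci DESeq2 called 1979 and 348 in these, against 821 and 15 in the main fit. The glyk1 response gave 3 in place of 5 with the compared groups alone (3 to 5 with a library left out), and the pglp1 response 2 to 4 with a library left out. For the glyk1 response the compared groups alone called 5931 of all loci, against 7924 in the main fit. Smaller changes were 6 in place of 5 in glyk1 and 5 in place of 4 in pglp1 for LC against HC, 3 in place of 4 in glyk1 against WT in LC, 4 in place of 6 for the shm1 response and 3 in place of 4 for the pglp1 response with the compared groups alone. Over all loci the first 2 of these fits called 12171 in place of 11120 and 12192 in place of 11473. The others called 7097 in place of 11383, 9028 in place of 11063 and 6658 in place of 8730. Rows as deposited gave 1 fewer in each shm1 comparison of LC libraries, and DESeq2 5 in place of 4 in glyk1 against WT in LC. Leaving out a library gave 4 to 5 in glyk1 for LC against HC, 3 to 5 in glyk1 and 3 to 4 in pglp1 against WT in LC, and 4 to 6 for the shm1 response. Counts over all loci are not given here for fits with libraries left out or with the crossed block.

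The replicate block changed no number of called members in WT and moved none in the mutants by over 1.5 times. By the labels, the samples put in a block share only a number. Crossing the hpr1 LC numbers, chosen after seeing the data, gave 0 called members in hpr1 against WT in LC. Signs turned for PGDH2 in hpr1 against WT in LC (0.08 to -0.17 with the replicate block, -0.14 with it crossed, -0.19 without both WT replicate 3 libraries), PGDH3 in glyk1 (-0.28 to 0.21 with rows as deposited) and PSP1 in pglp1 (0.10 to -0.04 without both WT replicate 3 libraries); the cause was not tested. With a library left out, signs also turned in these results against WT in LC: PGDH2 (-0.55 to 1.32), PGDH3 (-0.33 to 1.00) and PSP1 (-0.21 to 0.16) in hpr1, PGDH3 in glyk1 (-0.90 to 0.50), and PGDH3 (-0.19 to 1.19) and PSP1 (-0.15 to 0.51) in pglp1. Between LC and HC they turned for PGDH2 (-1.01 to 0.68) and PGDH3 (-1.29 to 0.04) in WT and for PSP1 in pglp1 (-0.60 to 0.06). The share differences ranged from 9.5 to 18.5 points for PGDH2, -20.0 to -13.6 for PGDH3, 10.5 to 12.2 for PSAT1 and 1.5 to 4.1 for PGDH1 with a library left out. Low counts limit PSAT2 in the mutants in LC.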
